A study of Saccharomyces cerevisiae with 55 samples.

Results

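The inositol and phospholipid genes of budding yeast (Saccharomyces cerevisiae) described here are INO1 (YJL153C), ITR1 (YDR497C), CHO1 (YER026C), CHO2 (YGR157W), OPI3 (YJR073C) and their regulators INO2 (YDR123C), INO4 (YOL108C) and OPI1 (YHL020C). They were chosen by name from the platform's gene annotation, and 8 of the 8 were measured, out of 5540 genes. The choice was made with earlier results of these data known, so their ranks among all genes are descriptive. Each was read by 1 probe and had a value in all 54 samples, so the filter on missing values removed none of them.

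The genes make and control the phospholipids that carry inositol and choline. Ino1 makes inositol 3-phosphate from glucose 6-phosphate, the committed step of inositol synthesis, and Itr1 carries inositol into the cell. Cho1 makes phosphatidylserine, which is decarboxylated to phosphatidylethanolamine, and Cho2 and Opi3 methylate that lipid to phosphatidylcholine. Ino2 and Ino4 are basic helix-loop-helix proteins that bind DNA as a pair and activate these genes when inositol is scarce. Opi1 represses them when inositol is plentiful. It is held at the endoplasmic reticulum by phosphatidic acid and the membrane protein Scs2 and moves to the nucleus when phosphatidic acid is used up. INO1 is a standard model for repression by the Rpd3-Sin3 histone deacetylase and for the action of chromatin remodellers in yeast.

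The groups were 15 mutants of histone H4 in which lysines 5, 8, 12 and 16 of the N-terminal tail were replaced by arginine (K5R, K8R, K12R, K16R) in every combination. Arginine keeps the charge of lysine but cannot be acetylated. Total RNA of each mutant strain was hybridised with RNA of a parental strain with intact H4, MDY453 for 34 samples or MDY470 for the other 20, on 2-colour arrays. The mutants came from 30 strains with 3 to 5 samples per mutant; K8R/K12R rested on 1 strain, the quadruple mutant on 3 and each other mutant on 2. Of the samples, 30 carried K16R and 24 did not. K8R/K12R was measured against MDY470 alone, and the quadruple mutant and K5R/K12R/K16R against MDY453 alone. The sources used here do not give the medium, its inositol content, the growth phase, the mating type, the dyes or the rest of the strains' genotype. The titles of 13 arrays end in (s), which is not explained.

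All values are log2 ratios, centred on each array's median and read as likely mutant over parental; the direction is not stated in the sources used here. A ratio says nothing about how abundant one transcript is beside another. A mutant's mean was tested against 0 with limma, and adjusted p-values run over all 5540 genes with a threshold of 0.05. That test leaves out the parental strain's own spread. Some titles call an array a biological replicate and a few a technical one, but most say neither, so the p-values measure the spread between these samples, which may be partly technical. The MDY484 array of K5R/K12R/K16R carried both terms in its title and was kept as a sample, since no technical partner of it was analysed here. The SD of the ratios over all genes lay between 0.125 and 0.679 per sample and was highest in the quadruple mutant. Across genes, the median correlation between arrays was 0.809 within a mutant and 0.509 between mutants.

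INO1 RNA was higher the more lysines were replaced, and the step between 2 and 3 replaced lysines was the largest. INO1 lay between -0.21 and 0.29, with a median of 0.09, in the 12 samples with 1 substitution. It lay between 0.10 and 0.93 (median 0.48) in the 22 samples with 2, between 1.31 and 2.30 (median 1.80) in the 16 samples with 3, and between 2.03 and 3.20 (median 2.51) in the 4 samples with 4. No sample of a triple mutant overlapped a sample of a double mutant, whereas singles overlapped doubles and triples overlapped the quadruple mutant. INO1 was above 0 in 51 of 54 samples. With arrays scaled to the same spread over genes, the quadruple mutant was no longer the highest: its fitted INO1 value was 3.94 on that scale, inside the 3.53 to 5.32 of the 4 triple mutants.

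In the single mutants INO1 stayed close to the parental level. The K5R samples had -0.07, 0.03 and -0.06, and the K8R samples had 0.10, 0.09 and -0.21. The K12R samples had 0.14, 0.18 and 0.04, and the K16R samples had 0.15, 0.29 and 0.11. All 6 of these K12R and K16R samples were above 0, but none of the 4 means passed limma's test, with adjusted p between 0.354 and 0.965. Of the 8 genes, 0 passed in K5R (0 also at an unadjusted p under 0.05), against 0.632% of all genes in that mutant. In K8R 0 of 8 passed (OPI1 alone at the unadjusted p), against 0.325% of all genes. In K12R 0 of 8 passed (0 unadjusted), against 2.87%, and in K16R 0 of 8 passed (OPI3 and OPI1 unadjusted), against 18.4%. With arrays scaled to the same spread some of the 8 did pass by limma: ITR1 and OPI1 in K5R, ITR1, CHO2 and OPI1 in K8R, OPI3 and INO4 in K12R, and OPI3 and OPI1 in K16R, but INO1 in none of them. The percentages above belong to the unscaled arrays. The share of all genes passing on the scaled arrays is not given, so these calls cannot be set against it.

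In the double mutants INO1 rose modestly. K5R/K8R had 0.11, 0.46, 0.43 and 0.29, a mean of 0.32 ± 0.16 (SD, n = 4; limma adjusted p = 0.0354). This call was lost without the MDY459 sample of replicate 3 (0.26, limma adjusted p = 0.132), the MDY476 sample of replicate 2 (0.29, 0.124) or the MDY476 sample of replicate 4 (0.34, 0.0549). It was lost too with 1 mean per strain (limma adjusted p = 0.173), with the parental strain as a term (0.0573) and in the arrays against MDY453 alone (0.622). The same happened without the (s) arrays (0.0637) and with the replicate number as a block (0.103). K5R/K12R had 0.10, 0.45 and 0.39 and did not pass (mean 0.31 ± 0.19, n = 3; limma adjusted p = 0.0696), although it passed without the MDY469 quadruple sample (limma adjusted p = 0.0352) and without the MDY486 quadruple sample of replicate 2 (0.0497). The 2 combinations of K5R with K8R or K12R thus had nearly the same level and overlapped.

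The other 4 double mutants were higher. K5R/K16R had 0.29, 0.67, 0.43 and 0.36 (mean 0.44 ± 0.17), and K8R/K16R had 0.33, 0.69, 0.50 and 0.69 (mean 0.55 ± 0.17). K8R/K12R had 0.69, 0.71 and 0.82 (mean 0.74 ± 0.07), and K12R/K16R had 0.66, 0.93, 0.70 and 0.91 (mean 0.80 ± 0.14). All 4 passed with adjusted p between 3.72e-07 and 0.00316 by limma. K5R/K16R lost its call with 1 mean per strain (limma adjusted p = 0.0541) and in the arrays against MDY453 alone (0.275), where K8R/K16R lost its call too (0.231). The last of them, K12R/K16R, was 1.74-fold above the parental level and was the highest double mutant for INO1, though its samples overlapped those of K8R/K12R.

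In the triple mutants INO1 was about 3- to 4-fold above the parental level. K5R/K8R/K16R had 1.58, 1.51 and 1.53 (mean 1.54 ± 0.03), and K5R/K12R/K16R had 1.75, 1.31, 1.63 and 1.79 (mean 1.62 ± 0.21). K5R/K8R/K12R, the triple mutant that keeps lysine 16, had 1.92, 1.82, 1.99, 1.78 and 2.17 (mean 1.94 ± 0.15). K8R/K12R/K16R, which keeps lysine 5, had 2.30, 2.22, 1.95 and 2.05 (mean 2.13 ± 0.16). The fold changes were 2.91, 3.07, 3.83 and 4.38 in that order, and the largest limma adjusted p of the 4 was 3.66e-14. The sample ranges of neighbouring triple mutants in this order overlapped.

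In the quadruple mutant INO1 had 3.20 in the MDY469 sample, 2.13 and 2.03 in the MDY486 samples and 2.88 in the MDY487 sample, a mean of 2.56 ± 0.57 (SD, n = 4) or 5.89-fold (limma adjusted p = 5.12e-26). The MDY469 and MDY487 samples stood well above both MDY486 samples, which lay inside the range of the triple mutants. With each of the 54 samples left out in turn, the fitted quadruple value stayed between 2.38 and 2.74. Along the order of the 15 mutant means, 13 of the 14 neighbouring pairs overlapped in their samples. The exception was the step between K5R/K8R/K16R and K12R/K16R. INO1 ranked 8 of 5540 genes from the highest in the quadruple mutant, 2 in K8R/K12R/K16R, 3 in K5R/K8R/K16R, 10 in K5R/K8R/K12R and 19 in K5R/K12R/K16R. These would be the same places from the lowest if the ratio ran the other way.

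**Figure D1:**
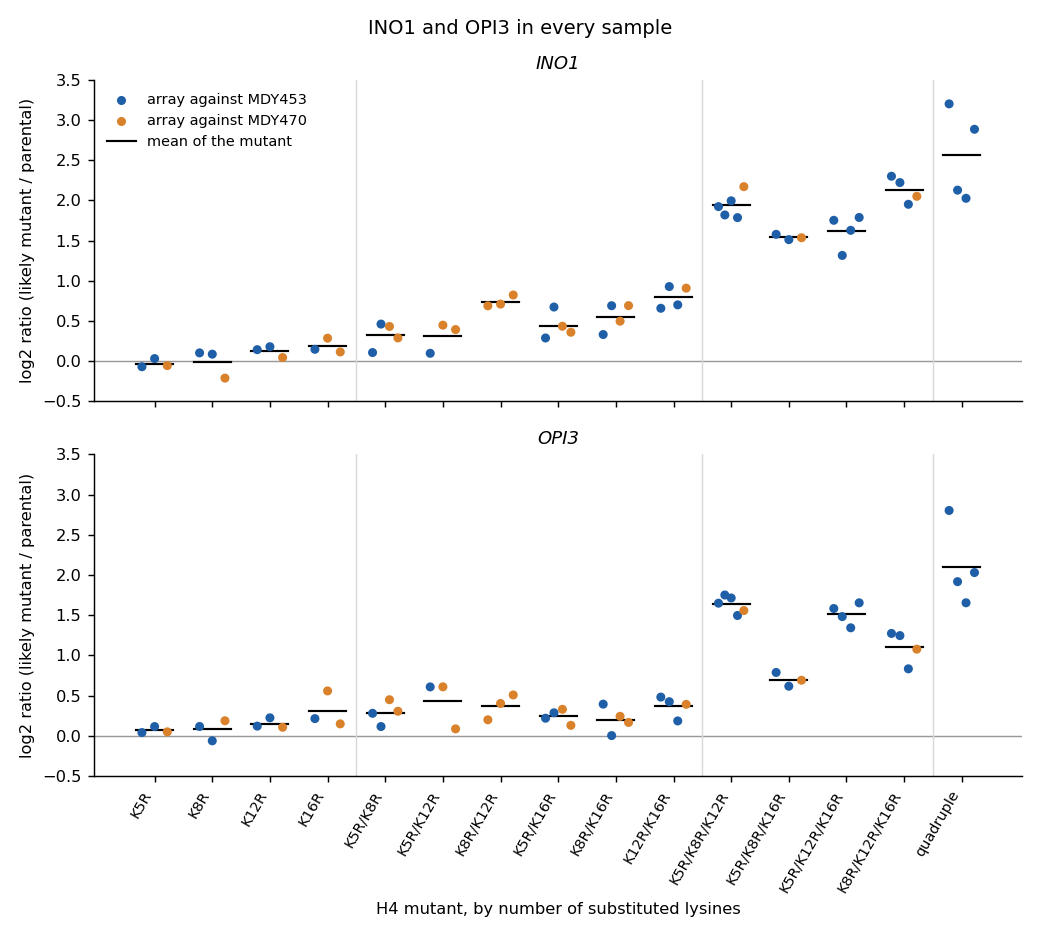
Log2 ratio (likely mutant over parental) of INO1 and of OPI3 in each of the 54 samples, grouped by mutant and coloured by the parental strain on the array. INO1 triple mutants lie between 1.31 and 2.30 and no double mutant exceeds 0.93, and OPI3 in K5R/K8R/K16R lies below the other 3 triple mutants.

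To set the 4 lysines side by side, a model with a term for each substitution was fitted to all 54 samples. Every substitution raised INO1 on average: by 0.67 ± 0.09 for K5R (SE; limma adjusted p = 2.11e-08), 0.95 ± 0.09 for K8R (4.39e-12), 1.09 ± 0.09 for K12R (1.75e-15) and 0.93 ± 0.09 for K16R (4.28e-13). INO1 ranked 17, 5, 7 and 4 from the highest among the 5540 genes for these effects, or from the lowest with the ratio turned. K16R did not stand apart: its effect minus the mean of the other 3 effects (0.90 ± 0.05) was 0.03 ± 0.10, with a 95% interval of -0.16 to 0.22 (limma adjusted p = 0.872). K5R was 0.28 below K8R (interval of the difference -0.51 to -0.04) and 0.42 below K12R (-0.66 to -0.18), but neither difference passed over all genes (limma adjusted p = 0.871 and 0.358).

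The same held mutant by mutant. There were 7 pairs of mutants that differed by each lysine alone, and INO1 was higher with the substitution than without it in 7 of 7 pairs, whichever of the 4 lysines was taken. The samples did not overlap in 5 of the pairs for K5R, 7 for K8R, 7 for K12R and 6 for K16R. How common such counts of pairs are among all genes is not given, so these counts cannot be set against the genome. For K8R the difference in means ran between 0.35, in K5R/K8R against K5R, and 1.63, in K5R/K8R/K12R against K5R/K12R. Adding K16R to the triple mutant K5R/K8R/K12R gave 0.62 and overlapping samples.

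The site effects of INO1 were alike against both parental strains. K5R, K8R, K12R and K16R had effects of 0.63, 0.99, 1.10 and 0.88 in the arrays against MDY453, and of 0.68, 0.87, 1.07 and 0.99 in those against MDY470. All 8 of these values passed limma's test, the weakest with an adjusted p of 0.00428. Of the 12 mutants measured against both, the mean against MDY470 was higher than that against MDY453 in 6 and lower in 6, by -0.31 to 0.32. The model's intercept for INO1 was -1.05, although the parental strain against itself should give 0. Without an intercept the effects were 0.25, 0.55, 0.71 and 0.51, and K5R no longer passed (limma adjusted p = 0.143).

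**Figure D2:**
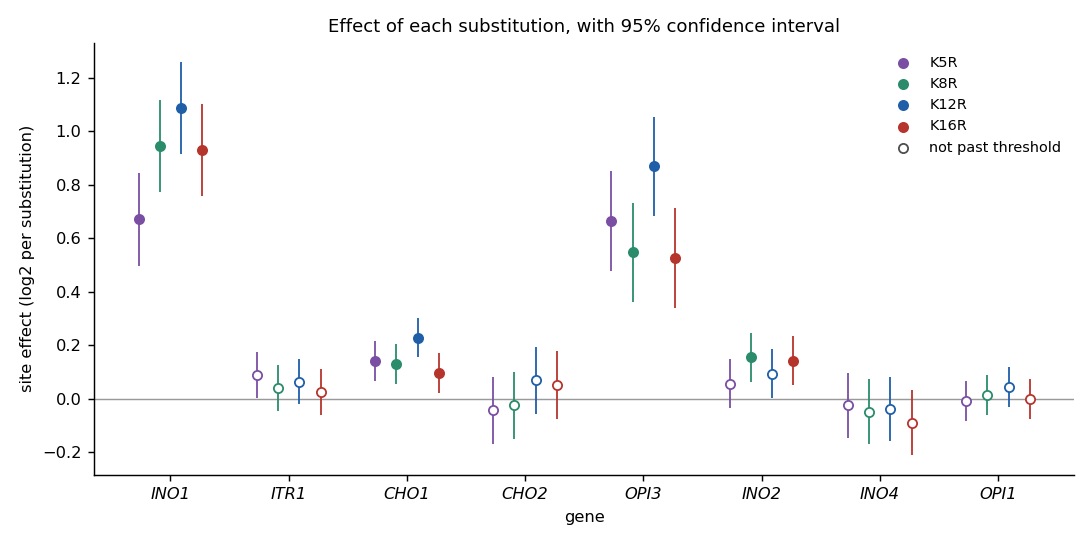
Mean effect of each substitution on the log2 ratio of each of the 8 genes, with its 95% confidence interval; open symbols did not pass limma's test. INO1 (0.67 to 1.09) and OPI3 (0.53 to 0.87) lie far above the other genes, whose effects lie between -0.09 and 0.23.

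INO1 in combined mutants exceeded the sum of the single mutants. In the fit with a mean per mutant, the quadruple mutant was at 2.60 whereas the 4 single mutants summed to 0.24, a difference of 2.36 ± 0.27 (SE; limma adjusted p = 2.76e-09). The triple mutants averaged 1.82 against 0.18 for the sums of their singles, a difference of 1.63 ± 0.20 (limma adjusted p = 3.63e-08). The double mutants averaged 0.53 against 0.12, a difference of 0.41 ± 0.13 that did not pass (limma adjusted p = 0.0867). When each array was divided by its own spread over genes the quadruple and triple differences kept their sign and their calls, at 2.81 (limma adjusted p = 0.00115) and 3.51 (3.43e-07) on that scale, and the difference of the doubles passed too, at 1.38 (0.00198). This comparison was chosen after the values had been seen.

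Of the 8 genes, 2 exceeded the sum of their singles in the quadruple mutant, INO1 and OPI3, where 41.4% of all genes departed from it in either direction. With arrays scaled to the same spread the set was another one: INO1 still passed and OPI3 did not, OPI1 exceeded its sum (1.98 on that scale; limma adjusted p = 0.00062), and ITR1 (-1.65; 0.00573) and CHO2 (-1.91; 0.033) lay below theirs. The share of all genes on that scale is not given. On the unscaled arrays 3 of 8 exceeded their sums in the triple mutants, INO1, OPI3 and CHO1, against 30.2% of all genes. In the double mutants 0 of 8 passed by limma (INO1 alone at an unadjusted p under 0.05), against 1.5%.

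**Figure D3:**
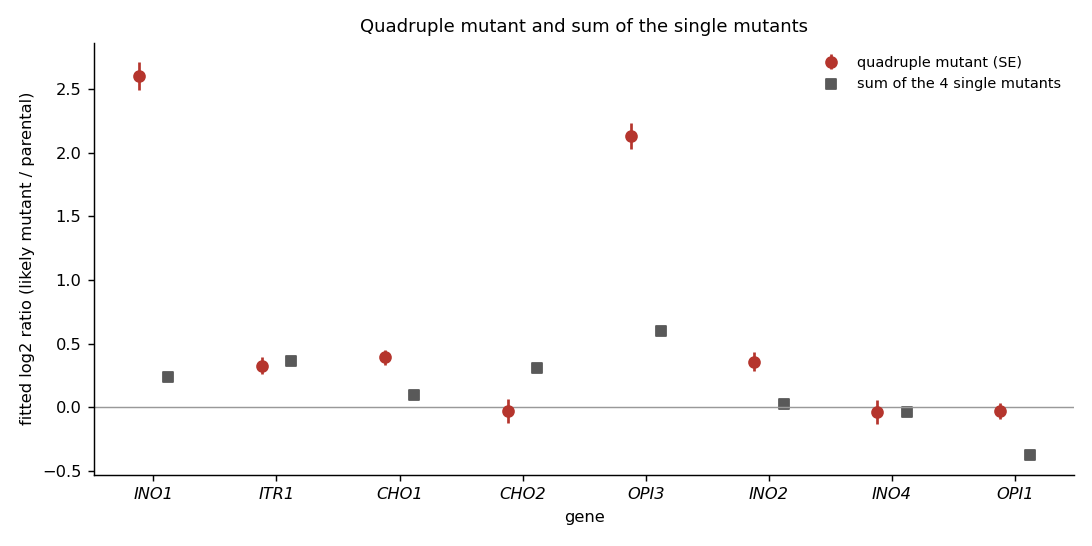
Fitted log2 ratio of the quadruple mutant (± SE) and the sum of the 4 single-mutant means for each of the 8 genes. The quadruple mutant lies at 2.60 against a sum of 0.24 for INO1 and at 2.13 against 0.60 for OPI3.

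Pairwise products of the site terms, fitted over all 15 mutants, asked whether a pair of substitutions departed from additivity, and their calls changed with the processing. For INO1 the 6 products together did not pass (limma F test, adjusted p = 0.07), and the product of K8R and K12R was 0.60 ± 0.16 (adjusted p = 0.00869). That product was -0.06 (adjusted p = 0.961) when arrays were scaled to the same spread, so its sign depended on the scale. The call was also lost with 1 mean per strain (adjusted p = 0.0542), in the arrays against MDY453 alone (0.198) and without the (s) arrays (0.0611). OPI3 was the only 1 of the 8 genes to pass the F test (adjusted p = 4.27e-05), which 23.2% of all genes passed. Its product of K5R and K12R was 0.82 ± 0.14 (adjusted p = 2.9e-05), that of K8R and K12R 0.57 ± 0.14 (0.00419) and that of K12R and K16R 0.43 ± 0.14 (0.0357). The last was lost without any of 6 samples, among them the MDY469 quadruple sample, without which it was 0.34 (adjusted p = 0.0905), and none of the 3 passed with arrays scaled to the same spread or in the arrays against MDY453 alone. The other 5 were an MDY455, an MDY472, an MDY473, an MDY477 and an MDY479 sample, with values of 0.38 to 0.42. By limma, 1 of the 8 genes passed for K5R with K12R (22.7% of all genes), 2 for K8R with K12R (12.5%) and 1 for K12R with K16R (12.2%). No gene of the 8 passed for K5R with K8R (OPI3 at an unadjusted p under 0.05; 9.35% of all genes), K5R with K16R (0 unadjusted; 12%) or K8R with K16R (CHO2 and INO4 unadjusted; 8.29%).

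OPI3, the last methyltransferase of phosphatidylcholine synthesis, was the only other gene of the set that rose strongly, and its order of mutants differed from that of INO1. In the quadruple mutant it had 2.80 in the MDY469 sample, 1.92 and 1.65 in the MDY486 samples and 2.03 in the MDY487 sample, a mean of 2.10 ± 0.49 (SD, n = 4) or 4.29-fold (limma adjusted p = 2.62e-23). As for INO1, the MDY469 sample was the highest.

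Among the triple mutants K5R/K8R/K12R had 1.65, 1.75, 1.71, 1.50 and 1.56 for OPI3 (mean 1.63 ± 0.11), and K5R/K12R/K16R had 1.58, 1.48, 1.34 and 1.65 (mean 1.52 ± 0.13). K8R/K12R/K16R had 1.27, 1.25, 0.83 and 1.08 (mean 1.11 ± 0.20). K5R/K8R/K16R, the triple mutant that keeps lysine 12, had 0.79, 0.62 and 0.69 (mean 0.70 ± 0.09) and did not overlap any other triple mutant. All 4 rose, the weakest with a limma adjusted p of 7.4e-06. The ranking of the triple mutants thus differed between the genes: K8R/K12R/K16R was the highest for INO1 and the third for OPI3.

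In the double mutants OPI3 lay between 0.00 and 0.61 in the 22 samples, with a median of 0.30. K5R/K12R rose (0.61, 0.61 and 0.09, mean 0.43 ± 0.30; limma adjusted p = 0.00491), and so did K8R/K12R (0.20, 0.40 and 0.51, mean 0.37 ± 0.16; 0.0446) and K12R/K16R (0.48, 0.42, 0.18 and 0.39, mean 0.37 ± 0.13; 0.0105). All 3 contained K12R. Each call was lost when 1 sample was left out: K5R/K12R was 0.35 without the MDY460 sample or without the MDY477 sample of replicate 2 (limma adjusted p = 0.126 and 0.0741), K8R/K12R was 0.30 or 0.35 without the MDY479 sample of replicate 3 or 2 (0.188 and 0.134), and K12R/K16R was 0.36 without the MDY481 sample (0.0702).

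The double mutants without K12R did not pass for OPI3, with means of 0.29 ± 0.14 in K5R/K8R, 0.24 ± 0.09 in K5R/K16R and 0.20 ± 0.16 in K8R/K16R (SD, n = 4 each). K5R/K8R, with a limma adjusted p of 0.0528, passed without any of 6 samples (1 each of MDY469, MDY486, MDY468, MDY477, MDY459 and MDY458), with 0.0161 without the MDY469 quadruple sample, and K5R/K16R passed without that sample too (0.0404). In the single mutants the means were 0.07 in K5R, 0.08 in K8R, 0.15 in K12R and 0.31 in K16R, and none passed. K16R was made of 0.21, 0.56 and 0.15 (limma adjusted p = 0.0794) and passed without the MDY469 quadruple sample (0.0281). The 12 single-mutant samples lay between -0.06 and 0.56, and OPI3 was above 0 in 53 of 54 samples.

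The site effects of OPI3 were 0.66 ± 0.09 for K5R, 0.55 ± 0.09 for K8R, 0.87 ± 0.09 for K12R and 0.53 ± 0.09 for K16R (SE), all past limma's threshold, the weakest with an adjusted p of 9.09e-06. K12R had the highest value, but its differences from K5R (interval of K5R minus K12R -0.46 to 0.05) and from K8R (interval of K8R minus K12R -0.57 to -0.07) did not pass over all genes (limma adjusted p = 0.999 and 0.326). OPI3 was higher with K12R than without it in 7 of 7 matched pairs, and samples did not overlap in 5. With K5R it was higher in 6 of 7, with K8R in 6 of 7 and with K16R in 7 of 7. As for INO1, these pair counts have no share of all genes beside them. The effects were smaller against MDY470: K5R 0.35 (limma adjusted p = 0.147), K8R 0.40 (0.0455), K12R 0.48 (0.0219) and K16R 0.35 (0.135). Against MDY453 they were 0.73, 0.58, 1.01 and 0.47, and all 4 passed. The quadruple mutant and K5R/K12R/K16R were not measured against MDY470, nor K8R/K12R against MDY453. Whether this bears on the difference was not tested. Without an intercept K8R and K16R lost their calls for OPI3, at 0.27 (limma adjusted p = 0.0829) and 0.23 (0.113).

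OPI3 exceeded the sum of its single mutants by 1.53 ± 0.26 in the quadruple mutant (2.13 against 0.60; SE; limma adjusted p = 7.96e-06) and by 0.79 ± 0.19 on average in the triple mutants (1.24 against 0.45; 0.00138). In the double mutants the difference was 0.02 ± 0.13 (interval -0.24 to 0.28; limma adjusted p = 0.951). With arrays scaled to the same spread, the quadruple and triple differences were 0.40 and 0.79 on that scale and no longer passed (limma adjusted p = 0.626 and 0.159).

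Upstream of OPI3 in the pathway, CHO1, which encodes phosphatidylserine synthase, rose by a much smaller amount. Its samples in the quadruple mutant had 0.52, 0.39, 0.37 and 0.29 (mean 0.39 ± 0.10 or 1.31-fold; limma adjusted p = 1.25e-07). In K5R/K8R/K12R they had 0.46, 0.41, 0.46, 0.38 and 0.55 (mean 0.45 ± 0.06), and the other 3 triple mutants had means of 0.24 to 0.42. All 16 triple and 4 quadruple samples were above 0, and the range of the triples (0.20 to 0.65) enclosed that of the quadruple mutant. The 4 triple mutants rose, the weakest with a limma adjusted p of 0.00658. K12R/K16R passed as well (mean 0.16 ± 0.18; limma adjusted p = 0.0339), but this rested on the MDY481 sample at 0.42 beside 0.04, 0.08 and 0.09. Without it the value was 0.07 (limma adjusted p = 0.608).

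The site effects of CHO1 were 0.14 ± 0.04 for K5R, 0.13 ± 0.04 for K8R, 0.23 ± 0.04 for K12R and 0.09 ± 0.04 for K16R (SE; limma adjusted p = 0.00207, 0.00464, 8.88e-07 and 0.0392). The K5R and K8R calls were lost without an intercept (0.09 and 0.08; limma adjusted p = 0.082 and 0.133), with arrays scaled to the same spread (0.137 and 0.191) and against MDY470 alone (0.194 and 0.0949), and that of K8R against MDY453 alone as well (0.0747). The K16R call was lost in the same 3 settings and against MDY453 alone (limma adjusted p = 0.111). Without the (s) arrays the K8R call (0.0529) and the K16R call (0.121) were both lost. The K16R call was also lost with 1 mean per strain (0.0668) and with the MDY487 technical pair as 2 samples (0.0608). It ended as well without any of 7 samples, with values of 0.08 to 0.09 and adjusted p up to 0.0621. The 7 were 1 each of MDY456, MDY459, MDY460, MDY469, MDY474, MDY475 and MDY481. K8R/K12R did not pass for CHO1 (mean 0.20 ± 0.06; limma adjusted p = 0.0617) but passed without an MDY481, MDY459 or MDY467 sample (0.0421 to 0.0498), and K5R/K8R passed without the MDY459 sample of replicate 1 (0.20, 0.0428). The triple mutants exceeded the sums of their singles by 0.29 ± 0.11 (0.36 against 0.07, limma adjusted p = 0.0407). This call was lost without any of 8 single-mutant samples, with values of 0.23 to 0.30 and adjusted p up to 0.11. Those samples were both MDY455, both MDY457 and both MDY458 samples, 1 of MDY456 and that of MDY474. The call was also lost with scaled arrays (0.236), with 1 mean per strain (0.134) and without the (s) arrays (0.117). It was lost too with all probes (0.0533), with uncentred arrays (0.084) and with the technical pair as 2 samples (0.0603).

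CHO2, the methyltransferase that acts just before Opi3, did not move with it. In the quadruple mutant CHO2 had 0.30 in the MDY469 sample, -0.05 and -0.28 in the MDY486 samples and -0.12 in the MDY487 sample, a mean of -0.04 ± 0.24 (SD, n = 4; limma adjusted p = 0.8). None of its 4 site effects passed or had an unadjusted p under 0.05, and they lay between -0.04 and 0.07, although K12R passed against MDY470 alone (0.30 for CHO2; limma adjusted p = 0.0342). It passed in 2 of the 15 mutants. In K12R/K16R the mean was 0.32 ± 0.36 (limma adjusted p = 0.00792), with 0.82 in the MDY481 sample beside -0.02, 0.21 and 0.28, and without that sample it was 0.15 (0.439). In K5R/K12R/K16R the mean was 0.33 ± 0.21 (limma adjusted p = 0.011) and without the MDY467 sample of replicate 4, at 0.63, it was 0.22 (0.0889).

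ITR1, the main inositol transporter, rose slightly in 3 mutants. In the quadruple mutant it had 0.30, 0.51, 0.38 and 0.16 (mean 0.34 ± 0.15 or 1.26-fold; limma adjusted p = 3.35e-05), in K5R/K12R/K16R it had 0.22, 0.26, 0.23 and 0.23 (mean 0.24 ± 0.02; 0.00552), and in K5R/K8R/K12R its mean was 0.20 ± 0.13 (0.0135). The last call was lost without the MDY465 sample of replicate 3 (0.16, limma adjusted p = 0.0512). All 3 mutants carried K5R and K12R, but the double mutant K5R/K12R did not pass (mean 0.15, limma adjusted p = 0.147). The samples of the quadruple mutant lay above those of the single mutants (0.03 to 0.14) but overlapped the triples, which reached 0.37, and the doubles, which reached 0.48. K8R/K16R did not pass (limma adjusted p = 0.241) but did without the MDY463 sample of replicate 3 (0.21, 0.0445). None of the 4 site effects of ITR1 passed; K5R (0.09 ± 0.04) had an unadjusted p under 0.05 and a limma adjusted p of 0.0923, or 0.0179 without the MDY463 sample of replicate 1. The mean of the K5R, K8R and K12R effects was 0.06 ± 0.03 (limma adjusted p = 0.0273), and without the MDY486 sample of replicate 1 or the MDY469 sample it was 0.05 or 0.06 (0.0601 and 0.0515), and it did not pass with scaled arrays (0.985) or against MDY453 (0.128) or MDY470 (0.682) alone. ITR1 has a close relative, ITR2, whose values are given further on; whether the probes tell the 2 apart was not tested.

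**Figure D4:**
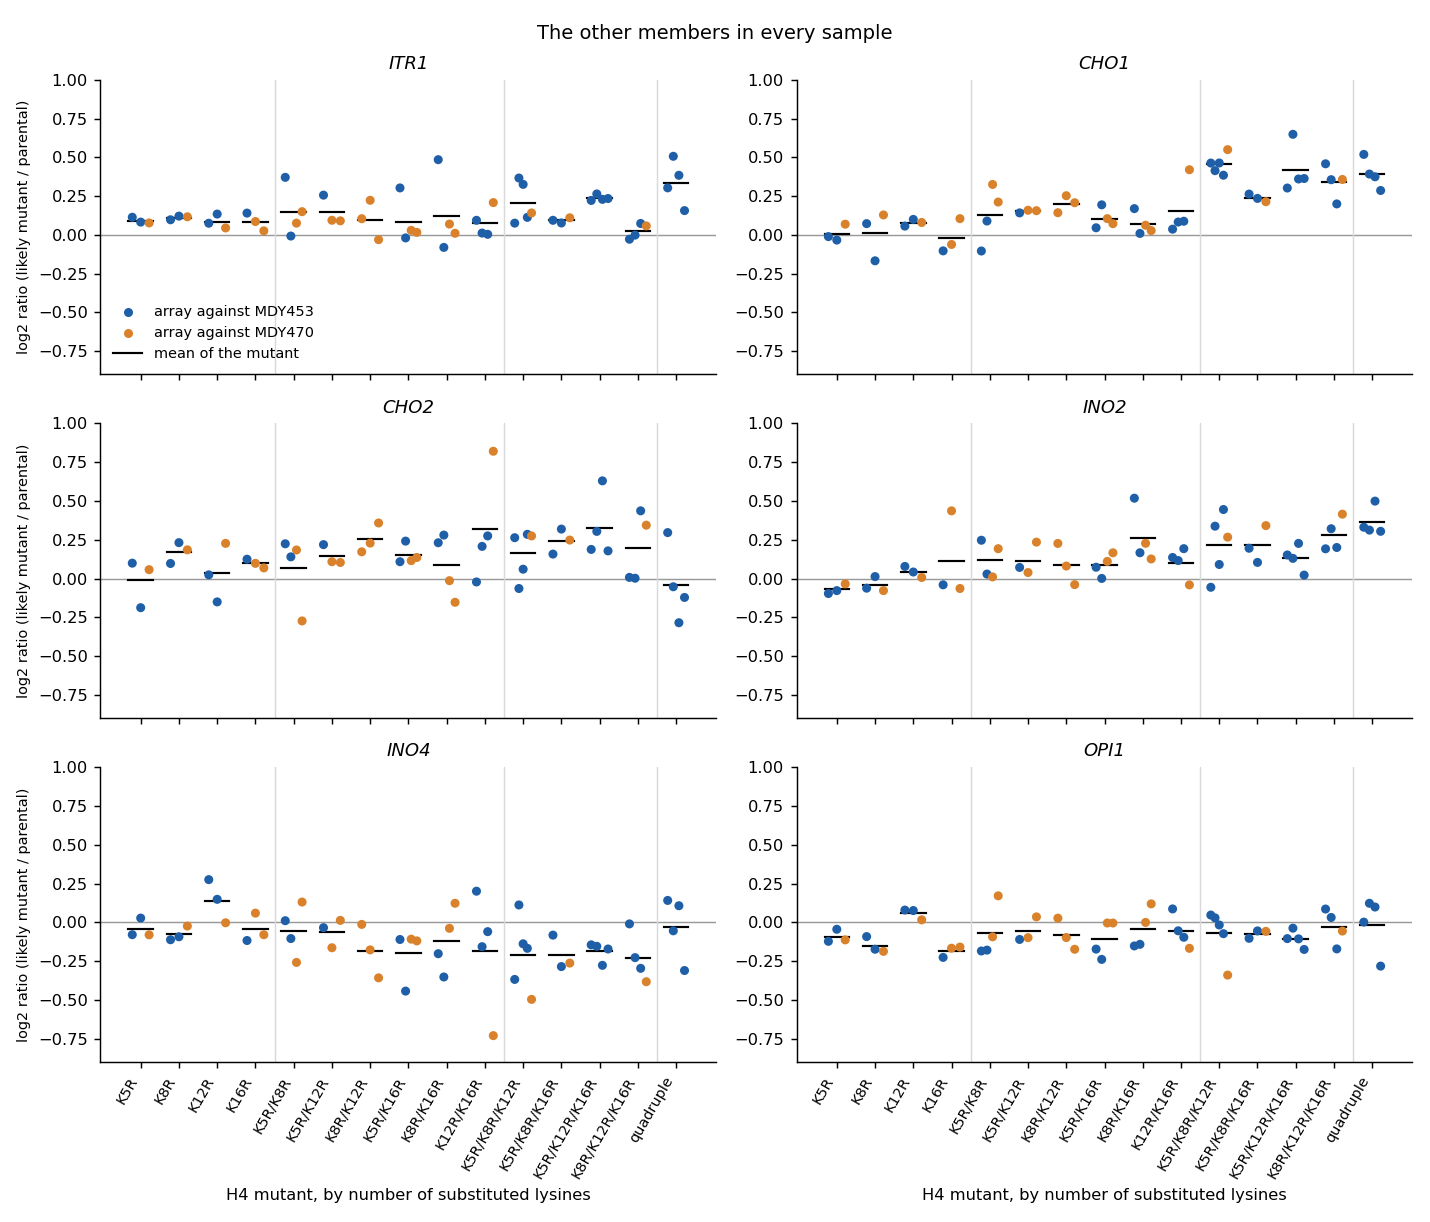
Log2 ratio (likely mutant over parental) of ITR1, CHO1, CHO2, INO2, INO4 and OPI1 in each of the 54 samples, grouped by mutant and coloured by parental strain. Values lie between -0.73 and 0.82, and the highest CHO2 and the lowest INO4 value both belong to the MDY481 sample of K12R/K16R.

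Of the regulators, only INO2 rose in the quadruple mutant. INO2 had 0.33, 0.31, 0.50 and 0.30 there (mean 0.36 ± 0.09 or 1.29-fold; limma adjusted p = 2.68e-05), with no sample below 0.30. It also rose in K8R/K12R/K16R (0.19, 0.32, 0.20 and 0.42, mean 0.28 ± 0.11; limma adjusted p = 0.00198), K8R/K16R (mean 0.26 ± 0.18; 0.0121), K5R/K8R/K12R (mean 0.22 ± 0.20; 0.0098) and K5R/K8R/K16R (mean 0.21 ± 0.12; 0.0355). All 5 of these mutants carried K8R. Other mutants with K8R did not pass: K8R (-0.04), K5R/K8R (0.12) and K8R/K12R (0.09), with limma adjusted p of 0.87, 0.276 and 0.553. The single mutants K5R, K8R and K12R had INO2 samples between -0.10 and 0.08, and the K16R samples were -0.04, 0.44 and -0.06.

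Several INO2 calls rested on single samples. K8R/K16R was 0.17 without the MDY463 sample of replicate 1 (limma adjusted p = 0.175). K5R/K8R/K16R was 0.15 without the MDY483 sample (0.324) and 0.22 without the MDY466 sample of replicate 2 (0.0815). K5R/K8R/K12R was 0.20 without the MDY482 sample (0.0522) and 0.17 without the MDY465 sample of replicate 5 (0.0523). The site effects of INO2 were 0.15 ± 0.05 for K8R (limma adjusted p = 0.0058) and 0.14 ± 0.05 for K16R (0.0114). These calls were lost without an intercept (K8R 0.0677, K16R 0.0996), with arrays scaled to the same spread (0.0727 and 0.0522) and against MDY470 alone (0.25 and 0.107). The K16R call was also lost against MDY453 alone (0.158). INO2 was higher with K8R in 7 of 7 matched pairs and with K16R in 7 of 7, again without a share of all genes to compare. The K12R effect was 0.09 ± 0.05 (0.0808) and passed without any of 3 samples, the strongest being 0.11 (0.0199) without the K16R sample of MDY458 replicate 3, 0.11 (0.0355) without the MDY463 sample of replicate 1 and 0.10 (0.0458) without the MDY465 sample of replicate 2. The K5R effect was 0.06 ± 0.05 (0.355). K8R did not pass against either K5R or K12R (INO2 limma adjusted p = 0.993 and 0.798), so an order of the sites was not shown. INO2 in the quadruple mutant exceeded the sum of its singles by 0.33 ± 0.19 (0.36 against 0.03; limma adjusted p = 0.155), and by 0.48 (0.0246) without the MDY458 sample of replicate 3.

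INO4, the partner of Ino2, lay below 0 in 42 of 54 samples but fell past the threshold in only 2 mutants. K5R/K8R/K12R had -0.37, 0.11, -0.14, -0.17 and -0.50 (mean -0.21 ± 0.23; limma adjusted p = 0.03), and K8R/K12R/K16R had -0.01, -0.23, -0.30 and -0.38 (mean -0.23 ± 0.16; 0.0491). The first was -0.14 without the MDY482 sample (0.305) and -0.20 without the MDY465 sample of replicate 2 (0.0861), and the second was lost in 35 of the 54 fits that left out a sample. In the quadruple mutant INO4 had 0.14, -0.05, 0.11 and -0.31 (mean -0.03 ± 0.21; limma adjusted p = 0.754). K12R/K16R had 0.20, -0.16, -0.06 and -0.73 in the MDY481 sample; it did not pass (limma adjusted p = 0.0839) and passed, at -0.34, without the MDY464 sample of replicate 2 (0.0135). None of the 4 site effects passed or had an unadjusted p under 0.05, although K12R passed against MDY470 alone (-0.32 for INO4; limma adjusted p = 0.0252).

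OPI1, the repressor, passed in 0 of 15 mutants by limma and in 2 at an unadjusted p under 0.05, K8R (mean -0.15 ± 0.05) and K16R (mean -0.18 ± 0.04), with n = 3 each. K16R passed without the MDY487 quadruple sample (limma adjusted p = 0.0474), and its 3 samples lay between -0.23 and -0.16. The OPI1 site effects lay between -0.01 and 0.04, and their 95% intervals reached -0.08 at the lowest and 0.12 at the highest. In the quadruple mutant the mean was -0.01 ± 0.19 (limma adjusted p = 0.706). Its difference from the sum of the single mutants was 0.35 ± 0.16 (-0.03 against -0.38; limma adjusted p = 0.0684), and 0.45 (0.0143) without the MDY487 sample. With arrays scaled to the same spread OPI1 passed as lower in K5R, K8R and K16R (limma adjusted p = 0.015, 0.000528 and 0.0157), and it exceeded its summed singles in doubles, triples and the quadruple mutant (0.75, 1.35 and 1.98 on that scale; 0.0101, 0.00115 and 0.00062).

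Counted together, 3 of the 8 genes rose with K5R (20.5% of all genes rose and 18.4% fell), 4 with K8R (19.4% and 18.1%), 3 with K12R (26% and 24.4%) and 4 with K16R (20.3% and 19%), and 0 of 8 fell with any of them at either the adjusted or the unadjusted p. INO1, OPI3 and CHO1 rose with each site and INO2 with K8R and K16R. For the mean effect of K5R, K8R and K12R 5 of 8 rose, among 32.3% of all genes that rose and 31.5% that fell. None of the 8 passed for K16R minus that mean (0 unadjusted), where 19.5% of all genes did. Among the differences between sites, K5R minus K8R gave 0 of 8 (INO1 unadjusted; 0% of all genes), K5R minus K12R 0 of 8 (INO1 unadjusted; 0%) and K8R minus K12R 0 of 8 (OPI3 unadjusted; 0.523%). The median site effect of the 8 genes lay between 0.07 and 0.08 for each site, and that of all genes was close to 0 for each.

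Over the combined mutants the count of called genes rose together with the count over the genome. By limma, 1 of 8 passed in K5R/K8R (20.1% of all genes), 1 in K5R/K12R (27.6%), 2 in K8R/K12R (21.3%), 1 in K5R/K16R (23.6%), 2 in K8R/K16R (20.7%) and 4 in K12R/K16R (26.1%). In the triple mutants the counts were 6 in K5R/K8R/K12R (60%), 4 in K5R/K8R/K16R (40.3%), 5 in K5R/K12R/K16R (56.8%) and 5 in K8R/K12R/K16R (46.6%), and in the quadruple mutant 5 of 8 passed (73.8%). INO4 in K5R/K8R/K12R and in K8R/K12R/K16R were the only falls. The shares of the 8 genes were thus near or below the genome's in several mutants. The size of the change set INO1 and OPI3 apart: the range of their 15 mutant means was 2.64 and 2.06, at percentiles 99.6 and 98.8 of all genes, whereas OPI1 had a range of 0.24, at percentile 5.31. CHO1, INO2 and ITR1 also passed in the quadruple mutant, but their values there lay at percentiles 77.2, 75.3 and 73.4 of all genes.

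**Figure D5:**
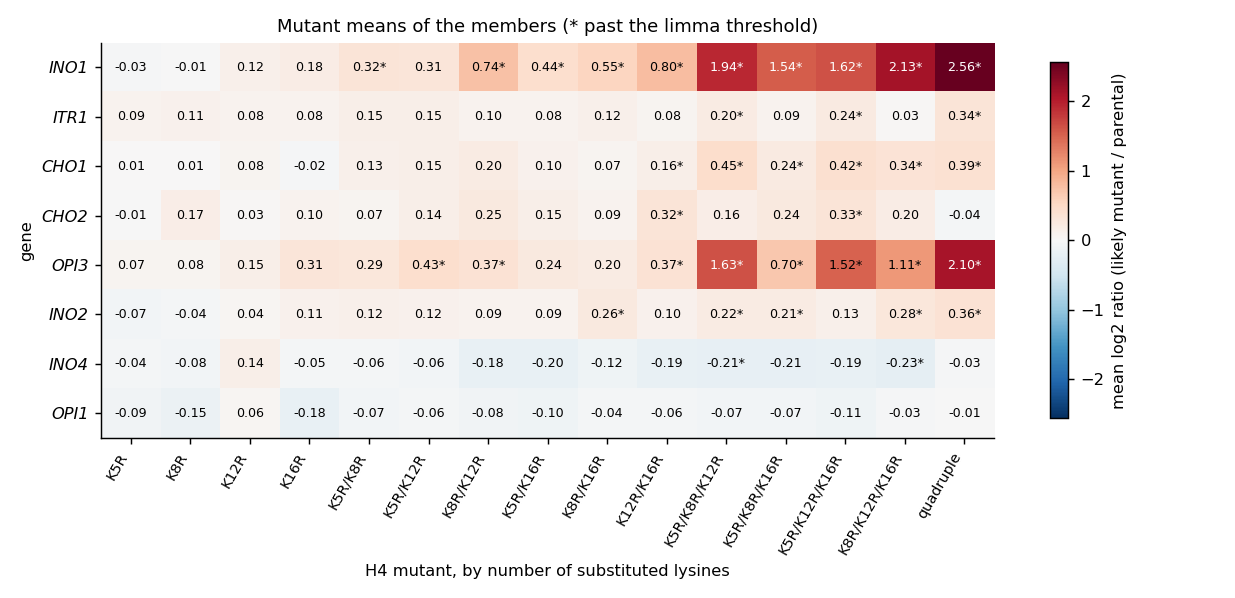
Mean log2 ratio of each of the 8 genes in each mutant (genes run down the page and mutants across it; colour scale in log2 units), with a star where limma's test passed. INO1 and OPI3 are the only genes above 1, reached in 5 mutants by INO1 and in 4 by OPI3.

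The other genes of inositol and choline metabolism did not rise as a group. Of the 6 genes of inositol and choline uptake and use, 2 rose and 3 fell in the quadruple mutant (median -0.08). INM1 and INM2, the phosphatases that finish inositol synthesis after Ino1, fell by 0.58 ± 0.06 and 0.30 ± 0.06 (SE), the second inositol transporter ITR2 fell by 0.40 ± 0.06, and the phosphatidylinositol synthase PIS1 rose by 0.22 ± 0.06 (limma adjusted p between 1.6e-11 and 0.000744). Over all genes 2056 rose and 2030 fell in that mutant, with a median of -0.01. INM1 also fell for the mean effect of the first 3 sites (-0.24 ± 0.03) and for K16R (-0.14 ± 0.04), by limma adjusted p of 2.16e-11 and 0.00715.

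In the CDP-diacylglycerol branch 3 of 6 genes rose and 2 fell in the quadruple mutant (median 0.17), where 37.1% of all genes rose and 36.6% fell. The mitochondrial phosphatidylserine decarboxylase PSD1, whose step lies between Cho1 and Cho2, fell by 0.96 ± 0.08, and CDS1, which makes CDP-diacylglycerol, rose by 0.51 ± 0.07. The cardiolipin pathway genes PGS1 and CRD1 rose by 0.42 ± 0.07 and 0.29 ± 0.05 (SE; limma adjusted p at most 1.89e-06 for the 4). In the Kennedy branch, which makes phosphatidylcholine and phosphatidylethanolamine from free choline and ethanolamine, 3 of 6 rose and 3 fell (median -0.04). Choline kinase CKI1 rose by 0.57 ± 0.06 and the phosphocholine cytidylyl transferase PCT1 by 0.35 ± 0.06, whereas the cholinephosphotransferase CPT1 fell by 0.46 ± 0.07 and ethanolamine kinase EKI1 by 0.25 ± 0.05 (limma adjusted p at most 3.08e-05).

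Phosphatidic acid and diacylglycerol genes were divided in the quadruple mutant, with 5 of 12 up and 5 down (median -0.11). The triacylglycerol acyltransferase LRO1 fell by 1.01 ± 0.10, the lysophospholipid acyltransferase ALE1 by 0.85 ± 0.07 and the phosphatidate phosphatase DPP1 by 0.65 ± 0.06, while the glycerol 3-phosphate acyltransferase GPT2 rose by 0.64 ± 0.08. Of 13 fatty acid genes 4 rose and 4 fell (median -0.07), among them the acyl-CoA synthetases FAA1 (1.45 ± 0.08) and FAA3 (-0.98 ± 0.10). Of the 12 measured sphingolipid genes 7 rose and 3 fell (median 0.26). SUR1 and CSG2, which add mannose to inositol-containing sphingolipids, rose by 1.12 ± 0.09 and 0.66 ± 0.06, and TSC10 fell by 0.55 ± 0.06. All of these named changes passed limma's test with an adjusted p of at most 1.35e-09.

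Genes that act on INO1 from outside the set were also mixed in the quadruple mutant, where 37.1% of all genes rose and 36.6% fell. Of 10 upstream regulators 4 rose and 3 fell (median 0.08): the histone deacetylase RPD3 fell by 1.28 ± 0.08, its partner SIN3 rose by 0.51 ± 0.07, the remodeller subunit SNF2 rose by 0.42 ± 0.06, and ISW2, another remodeller, fell by 0.27 ± 0.05 (SE; limma adjusted p at most 1.38e-05). RPD3 fell for K16R (-0.26 ± 0.09; limma adjusted p = 0.0123) and for the mean of the other 3 sites (-0.26 ± 0.05; 2.11e-05). Of the 5 genes of inositol polyphosphate synthesis 2 rose and 1 fell (median 0.16): the phospholipase PLC1 fell by 0.60 ± 0.06, and the kinases VIP1 and KCS1 rose by 0.31 ± 0.08 and 0.18 ± 0.06 (limma adjusted p = 3.74e-13, 0.000333 and 0.00526).

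In the unfolded protein response, the endoplasmic reticulum pathway whose regulators Ire1 and Hac1 are needed for growth without inositol, 7 of 12 genes rose and 2 fell in the quadruple mutant (median 0.23). Among all genes 37.1% rose and 36.6% fell there. The chaperone KAR2 rose by 1.90 ± 0.09, the oxidase ERO1 by 1.31 ± 0.06, the transcription factor HAC1 by 1.11 ± 0.09 and the Kar2 exchange factor SIL1 by 1.05 ± 0.06 (SE; limma adjusted p at most 4.88e-16). For the site effects 7 of 12 rose and 1 fell with K5R, 6 rose and 1 fell with K8R, 7 rose and 1 fell with K12R, and 5 rose and 2 fell with K16R, beside 20.5%, 19.4%, 26% and 20.3% of all genes that rose. The shares of all genes that fell were 18.4%, 18.1%, 24.4% and 19%.

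Other marker genes also changed in these mutants, in differing patterns. All 12 general stress genes rose in the quadruple mutant (median 1.70), beside 37.1% of all genes that rose and 36.6% that fell there. Their mean level per sample lay between 0.00 and 0.34 in single mutants, 0.24 and 0.75 in doubles, 0.86 and 1.60 in triples and 1.90 and 2.27 in the quadruple mutant. These ranges, like those of INO1, did not overlap between doubles and triples. The mean level of the 7 a-specific genes, which mark a haploid a cell, was -3.19 to -1.24 when K16R was present (30 samples) and -0.09 to 0.37 when it was absent (24 samples), whereas INO1 had nearly the same effect for K16R as for the other sites. The histone H4 genes HHF1 and HHF2 fell by 0.26 ± 0.09 and 0.22 ± 0.09 in the quadruple mutant (limma adjusted p = 0.0103 and 0.0201). By site effect both fell with K16R (median -0.30), with which 19% of all genes fell, and neither passed for K5R, K8R or K12R. Their mean level was 0.06 to 0.45 in the 24 samples without K16R and -0.58 to 0.28 in the 30 with it. The part of these changes in the values of INO1, OPI3 and the other genes was not tested.

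Across the 15 mutant means, the genes whose pattern was most like that of INO1 were none of the other 7. They were ARG3, the ornithine carbamoyltransferase of arginine synthesis (r = 0.987), ECM8 (0.983), the cytosolic isocitrate dehydrogenase IDP2 (0.983), PAU23 (0.981) and the RNA helicase SEN1 (0.98). Over the 30 strain means these r were 0.943 to 0.985. These mutants share the parental RNA on the arrays and the growth of change with the number of substitutions, and 282 of the 5539 other genes had r of at least 0.9 with INO1. Of the set, OPI3 had r = 0.929 (rank 153), CHO1 0.92 (186) and INO2 0.826 (634), ITR1 0.526, OPI1 0.216, CHO2 0.188 and INO4 -0.487. The genes most like OPI3 were PRX1, a mitochondrial peroxiredoxin (r = 0.992), TFS1, an inhibitor of carboxypeptidase Y (0.988), and YHR112C (0.987). Those most like CHO1 were the glutamate decarboxylase GAD1 (0.986), the hexose transporter HXT7 (0.979) and MEF1 (0.976). For OPI1 the closest gene reached only 0.741 (GLO2).

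The remaining genes of the set resembled other transcripts. ITR1 was most like RTS1 (0.94), SRL3 (0.936) and FBP26 (0.935), and CHO2 was most like the coat protein genes COP1 (0.929) and SEC27 (0.894) and the phosphatase subunit TPD3 (0.913). INO2 was most like PKR1 (0.91), SMT3 and ICY1 (0.898 each), and INO4 like RRI1 (0.897), EDS1 (0.845) and SEN15 (0.837). These r describe 15 points each, and many were lower over the 30 strain means: 0.658 for RTS1 with ITR1, 0.518 for TPD3 with CHO2, 0.418 for RRI1 and 0.146 for EDS1 with INO4, and 0.522 for GLO2 with OPI1.

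The measured genes beside INO1 on its chromosome did not share its pattern as a block. On one side VPS35 was at 0.08 ± 0.08 in the quadruple mutant (SE; limma adjusted p = 0.39), FBP26 rose by 0.77 ± 0.08, SSY5 was at -0.13 ± 0.06 (0.0593) and FAR1, a cell cycle inhibitor of the pheromone response, fell by 2.18 ± 0.09. On the other side SNA3 rose by 1.37 ± 0.09, DAS1 by 0.80 ± 0.08 and SMT1 by 0.11 ± 0.05 (limma adjusted p = 0.0293), and RPA34, a subunit of RNA polymerase I, fell by 0.28 ± 0.09 (0.0057). For K16R, FAR1 fell by 2.20 ± 0.07, SNA3 rose by 0.27 ± 0.08 and DAS1 by 0.27 ± 0.06 (limma adjusted p at most 0.00902), and VPS35 was at 0.11 ± 0.05 (0.069), beside 0.93 for INO1.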

How the data were processed

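The authors deposited a table of log ratios per probe and array. Base 2 was inferred from the limit of 6.64 (a ratio of 100), so the deposited values are read as log2 ratios. The sources used here do not give direction, dyes, background correction or normalization; no pair of arrays correlated below 0 (lowest r 0.00541). No spot intensities were used, so the number of arrays, 55, limits the precision. Limit values were set to missing, each array was centred on its median, and probes of a gene were averaged. Names came from the platform annotation (5570 of 6720 probes with 1 gene, 0 with several, 1150 with none), of which 5565 matched the R64 RefSeq table, used for names and gene order. Genes needed a value in 2 of 3 samples and in every mutant. The technical pair of MDY487 arrays (r = 0.927) was averaged into 1 sample.

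limma 3.58.1 in R 4.3.3 (two-sided, Benjamini-Hochberg) fitted 4 site terms with an intercept, 6 products, or 1 mean per mutant. Strain was a random block, with correlations of 0.346, 0.265 and 0.205. The fit of site terms was tested on simulated data in which K16R alone changed genes, without departures from additivity. The fits of products and of mutant means were not simulated. The members, the 13 gene lists and the tests were chosen with earlier results of these data known, and the comparison with summed single mutants was added after seeing values. Named genes are all 8 members, up to 4 per list and effect with the largest moderated statistics, the 5 genes most like INO1 and 3 most like each other member, and 4 neighbours on each side of INO1. All list genes but TSC3 were measured. Alternatives covered the block, parental strain, intercept, centring, scaling, limits, probes, (s) arrays, replicate number and each sample left out. Only some titles give a replicate number, and the other numbers were assigned here. Same-numbered samples of different mutants did not deviate together (median r 0.00591, lowest -0.508). With assigned numbers this check cannot show whether samples were paired, and the numbers were not taken to pair them.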

Additional observations from a re-analysis of the deposited data

Results flagged for a closer look

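Among 64 groups of 4 or 5 samples checked for 1 sample far from the rest, 5 had such a sample, and chance gives about 1 in 20. ITR1 in K5R/K16R was 0.3026 in an MDY461 sample, with the others between -0.02 and 0.03. This was an (s) array, and its INO1 value (0.29) was the lowest of that mutant. The (s) array also had the highest ITR1 and lowest INO1 value in K5R/K8R (0.37 and 0.11) and K5R/K12R (0.26 and 0.10). It did so in K8R/K16R too (0.48 and 0.33), but not in K12R/K16R (0.01 and 0.93). K8R/K12R had no (s) array. Whether the (s) arrays shifted together was not tested. INO4 in K5R/K16R was -0.443 in an MDY461 sample, with the others between -0.12 and -0.11. CHO1 in K12R/K16R was 0.4199 in the MDY481 sample, with the others between 0.04 and 0.09. CHO2 in K5R/K8R was -0.2728 in an MDY476 sample, with the others between 0.14 and 0.22. INO2 in the quadruple mutant was 0.4995 in an MDY486 sample, with the others between 0.30 and 0.33.

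The effect of one substitution differed with the presence of another, by a product term past limma's threshold, in 4 cases. For INO1 the product of K8R and K12R was 0.6011. For OPI3 the product of K5R and K12R was 0.8166, that of K8R and K12R 0.5733 and that of K12R and K16R 0.4282.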

How the results depend on the processing

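Over 14 alternative settings, 2475 of 2685 compared values kept their direction and call or moved little, 111 lost a call, 69 gained one, 29 counts moved by over 1.5 times and 1 sign reversed; the directions of values that passed under neither setting were not compared. The reversal was the INO1 product of K8R and K12R, -0.0616 with arrays scaled to 1 spread (limma adjusted p = 0.961). The count of the 8 genes past the F test of the products, 1, was 2 without the strain block, 0 in the arrays against MDY453 and 0 with scaling, and 1 to 2 with single samples left out (2 without either MDY486 sample or the MDY484 sample). Against MDY453 alone, 1399 genes were called for K5R and 1338 for K16R, 2 of the 8 genes for K16R, and 18 calls of the 8 genes over the mutants, beside 36. Against MDY470 alone, 1, 2, 5 and 1 of the 8 genes were called for K5R, K8R, K12R and K16R, and 351, 756, 1200 and 690 of all genes, with 1706 for the mean of the first 3. Without an intercept INO1 had 0.25 for K5R, 1 of the 8 genes was called for each of K5R, K8R and K16R, and 977, 738, 1776 and 1259 of all genes for the 4 sites. With scaling, 2 of the 8 genes were called for K8R, 2 for K16R and 3 for the mean of the other sites, with 998 and 1374 of all genes for K5R and K8R, and OPI3 in the quadruple mutant exceeded its singles by 0.40. Without the (s) arrays 5 of the 8 genes were called for K12R. The fits by parental strain held both fewer arrays and fewer mutants than the main fit. The cause of their changes, and of the others, was not tested. With the replicate number as a block INO1 had 0.94 for K16R. In that fit 2 calls were lost (INO1 in K5R/K8R, 0.26, and OPI3 in K8R/K12R, 0.34) and 5 gained. Many of the numbers were assigned here, so this block cannot test whether samples were paired.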
